A study of Sus scrofa with 10 samples.

Results

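EPCAM, WFDC2, CLDN4, KRT7, MSX1, MAL2, RASSF6 and VIL1 are 8 protein-coding genes measured in pig ovary. Their mean RNA level was lower after recombinant pig follicle-stimulating hormone (rpFSH) than in controls. It stayed lower in 4 of the 8 when control pigs 2 and 5 were left out. The set joins epithelial genes of the kind found in the oviduct with MAL2, RASSF6 and VIL1. These 8 genes were chosen on measured values of the same 10 pigs, from the comparison of the rpFSH treatment group with the control group, so their group differences are given as a description without a test. Each symbol was matched exactly against the gene names of the deposited table, and each was found at 1 locus, which gave 8 of 19972 protein-coding loci and of 43499 loci in all.

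Ovaries came from gilts of 1 genetic background, all 234 days old and each sequenced as a separate library. Every gilt of both groups had been fed altrenogest, a progestin that holds back oestrus, at 20 mg per day for 18 days from an age of 210 days. After a break, 5 gilts (rpFSH treatment group) were each given 1000 IU of rpFSH, and the other 5 (control group) were given an equal volume of normal saline. Follicles at the ovarian surface were removed before freezing, so the samples were whole remaining ovary and not sorted cells. Expression was given by the authors as FPKM (fragments scaled to transcript length and to the mapped total of the library) and as a count per locus. Total counts per pig lay between 64873797 and 75114003, and 3 counts corresponded to 0.0399 to 0.0462 CPM (counts scaled to the library total). Pigs are named by group and replicate number, and the labels do not say that a number shared by a control and an rpFSH pig links these animals.

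Epithelial cells line surfaces and ducts, hold together through adhesion molecules and tight junctions, and keep an apical membrane that differs from the rest of the cell surface. The oviduct, which lies against the ovary, is lined by secretory cells and by cells that carry motile cilia. Within the ovary, granulosa cells, luteal cells, stroma, vessels and muscle make up most of the tissue, and a thin epithelium covers its surface.

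EPCAM, a cell surface molecule through which epithelial cells adhere to each other, is at chromosome 3, 93165219 to 93185715, on the minus strand of Sscrofa11.1. CLDN4, a claudin of the tight junction, is on the same chromosome at 11039706 to 11053923 on the plus strand. WFDC2, a secreted protein with WAP domains (also called HE4) that is made in epithelium of the reproductive and respiratory tracts, is at chromosome 17, 47816452 to 47824108, on the plus strand. KRT7, a keratin of simple and ductal epithelia, is at chromosome 5, 17551816 to 17571141, on the plus strand. MSX1, a homeobox transcription factor of embryonic tissues and the female tract, is at chromosome 8, 5626495 to 5632643, on the minus strand. MAL2, a membrane protein of the transport route to the apical surface, is at chromosome 4, 19593536 to 19642794, on the minus strand. RASSF6, a Ras-association domain protein tied to the Hippo pathway and to cell death, is at chromosome 8, 69773124 to 69831492, on the minus strand. VIL1 (villin), which bundles actin in the microvilli of brush borders, is at chromosome 15, 120469629 to 120491665, on the plus strand. The 8 loci thus lay on 6 chromosomes, and the pairs that share chromosome 3 or chromosome 8 are not neighbours. By the gene ontology terms in the deposited table, EPCAM and CLDN4 shared the bicellular tight junction, CLDN4, EPCAM and MAL2 shared the membrane, and no term was held by more than 3 of the 8. Positions span the whole locus from first to last exon, as in the deposited table.

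EPCAM, WFDC2, CLDN4 and KRT7 were high in control pigs 2 and 5 and low in the other 8 pigs of both groups. MAL2, RASSF6 and VIL1 were lower in each rpFSH pig than in each control pig. MSX1 was scarce in both groups. VIL1 was scarce too, with 12 to 50 counts per pig against 10 to 87 for MSX1.

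**Figure D1:**
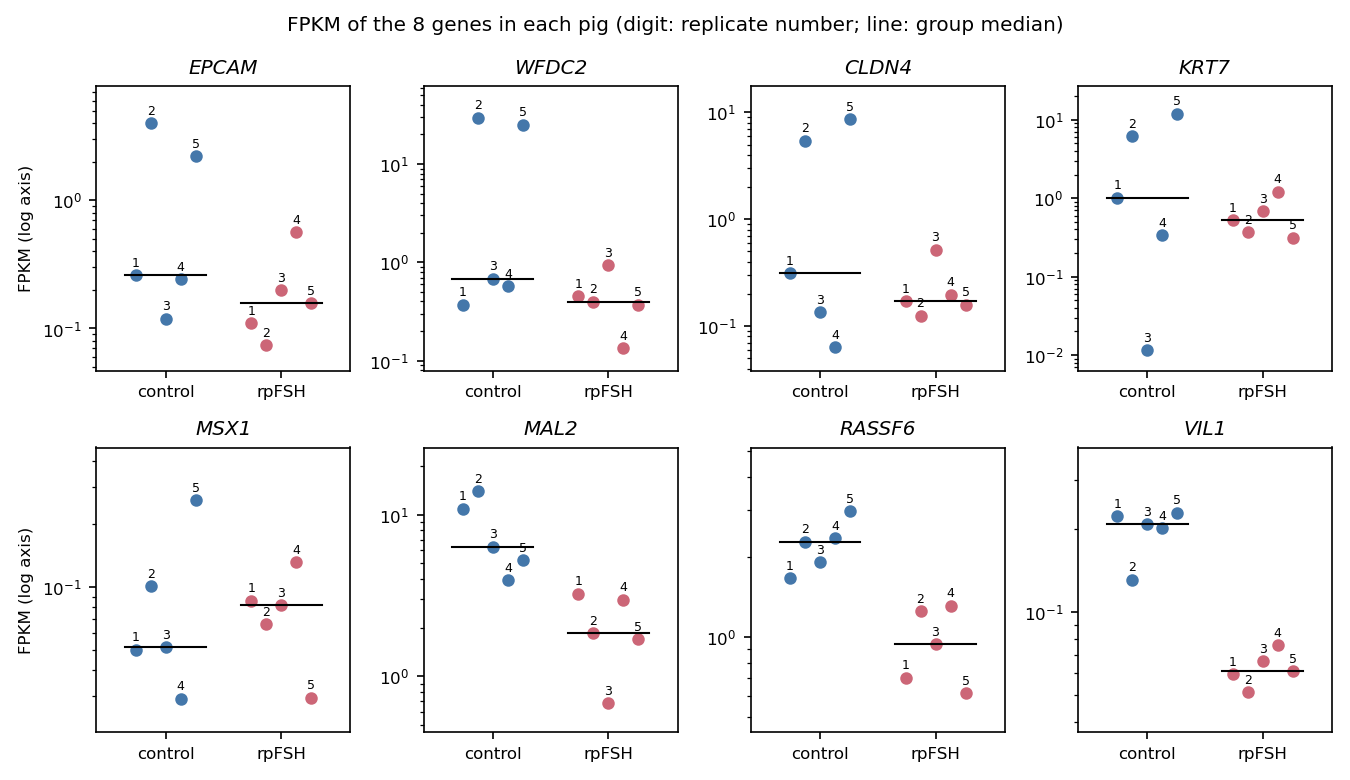
FPKM of the 8 genes in each pig on log axes, with control pigs in blue and rpFSH pigs in red, replicate numbers beside the points, and a line at each group median. In EPCAM, WFDC2, CLDN4 and KRT7 control pigs 2 and 5 stand above the other 8 pigs, in MAL2, RASSF6 and VIL1 the groups do not overlap, and the vertical scale differs between panels.

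The control pigs 1 to 5 had EPCAM FPKM of 0.261, 4.00, 0.119, 0.242 and 2.21. In the rpFSH pigs 1 to 5 the EPCAM values were 0.110, 0.0740, 0.199, 0.566 and 0.158. Thus control pigs 2 and 5 were the highest, at 7.06 and 3.90 times the highest of the other 8 pigs, and the remaining controls lay within the range of the rpFSH pigs. The group means were 1.37 ± 1.71 (SD, n = 5) in the control group and 0.221 ± 0.199 (SD, n = 5) in the rpFSH treatment group, a log2 ratio of -2.62. Without control pigs 2 and 5 the log2 ratio was 0.10, that is, the small difference pointed the other way.

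For CLDN4 the control pigs had FPKM of 0.315, 5.44, 0.135, 0.0633 and 8.62. The rpFSH pigs had CLDN4 values of 0.170, 0.125, 0.519, 0.197 and 0.159. Again control pigs 2 and 5 stood apart, at 10.5 and 16.6 times the highest of the other 8, and the other controls overlapped the rpFSH pigs. CLDN4 averaged 2.92 ± 3.92 FPKM (SD, n = 5) in controls and 0.234 ± 0.161 (SD, n = 5) after rpFSH. The log2 ratio of these means was -3.64, and it became 0.45 without control pigs 2 and 5.

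KRT7 had FPKM of 1.01, 6.21, 0.0115, 0.334 and 11.9 in control pigs 1 to 5. Its rpFSH values were 0.519, 0.369, 0.679, 1.21 and 0.312. The values of control pigs 2 and 5 were 5.12 and 9.80 times the highest of the other pigs, while control pig 3, with only 4 counts, was the lowest of all 10. The means were 3.89 ± 5.13 (SD, n = 5) and 0.618 ± 0.362 FPKM (SD, n = 5), with a log2 ratio of -2.65 over all pigs and of 0.45 without control pigs 2 and 5. The RefSeq gene table for the same assembly types this gene as a lncRNA, whereas the deposited table types it as protein-coding.

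WFDC2, the secreted member, had the widest range. Its FPKM in the control pigs were 0.371, 29.7, 0.681, 0.571 and 25.1, and 3 of these 5 values were below 1. In the rpFSH pigs WFDC2 was at 0.451, 0.399, 0.941, 0.134 and 0.370. Here control pigs 2 and 5 were at 31.6 and 26.7 times the highest of the other 8 pigs. Means of 11.3 ± 14.8 (SD, n = 5) and 0.459 ± 0.295 FPKM (SD, n = 5) gave a log2 ratio of -4.62, the largest of the 8 genes, and one of -0.24 without control pigs 2 and 5. For these 4 genes the log2 ratio of group medians was -0.72 for EPCAM, -0.77 for WFDC2, -0.89 for CLDN4 and -0.97 for KRT7. A median gives a high pair less weight, but each control median here was the highest of the controls other than pigs 2 and 5. The pair thus still shaped these ratios. Without it the log2 ratios of means were 0.10, -0.24, 0.45 and 0.45 in the same order of genes. The coefficient of variation in controls was 125% for EPCAM, 131% for WFDC2, 132% for KRT7 and 135% for CLDN4.

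MSX1, the transcription factor, was scarce in every pig. Control pigs had MSX1 FPKM of 0.0503, 0.101, 0.0516, 0.0293 and 0.260, and the rpFSH pigs had 0.0862, 0.0665, 0.0821, 0.131 and 0.0296. These rest on 10 to 87 counts per pig, and only control pig 5 exceeded the highest rpFSH pig. The group means of 0.0984 ± 0.0942 (SD, n = 5) and 0.0791 ± 0.0366 (SD, n = 5) differed by less than either SD. The log2 ratio was -0.32 over all pigs and 0.85 without control pigs 2 and 5. With a mean of 0.0888 FPKM it was the only member left out by the filter on low values (0.1 FPKM on average across pigs), so that 7 of the 8 genes were in the fit across loci.

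MAL2, of the apical transport route, was the most abundant member in the rpFSH treatment group. Control pigs 1 to 5 had 10.9, 14.0, 6.35, 3.93 and 5.23 FPKM of MAL2, and the rpFSH pigs had 3.24, 1.84, 0.678, 2.97 and 1.69. Each rpFSH pig lay below each control pig, although control pig 4 and rpFSH pig 1 were close. The means were 8.08 ± 4.22 (SD, n = 5) and 2.08 ± 1.04 FPKM (SD, n = 5), a log2 ratio of -1.96, and the log2 ratio without control pigs 2 and 5 was -1.76. Control pig 5, which was high in the epithelial genes, was only the fourth of the 5 controls in MAL2, and control pig 1, which lay within the rpFSH range in all 4 of them, had the second highest value.

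RASSF6 had control values of 1.66, 2.28, 1.91, 2.35 and 2.97 FPKM. In the rpFSH pigs RASSF6 stood at 0.702, 1.25, 0.936, 1.31 and 0.615. The groups did not overlap, and the gap between the lowest control and the highest rpFSH pig was narrow. RASSF6 averaged 2.23 ± 0.497 (SD, n = 5) and 0.963 ± 0.314 FPKM (SD, n = 5), with a log2 ratio of -1.21, or -1.03 without control pigs 2 and 5.

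VIL1 was scarce but even. Its FPKM were 0.222, 0.131, 0.208, 0.201 and 0.229 in control pigs and 0.0595, 0.0512, 0.0664, 0.0758 and 0.0610 in rpFSH pigs. The groups did not overlap, and control pig 2 had the lowest of the control values. These levels came from 43, 28, 40, 44 and 50 counts in the controls and from 13, 12, 13, 16 and 13 counts in the rpFSH pigs. The means of 0.198 ± 0.0390 (SD, n = 5) and 0.0628 ± 0.00908 FPKM (SD, n = 5) gave a log2 ratio of -1.66, and -1.74 without control pigs 2 and 5. The control coefficient of variation was 19.7% for VIL1 and 22.3% for RASSF6, against 52.3% for MAL2.

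**Figure D2:**
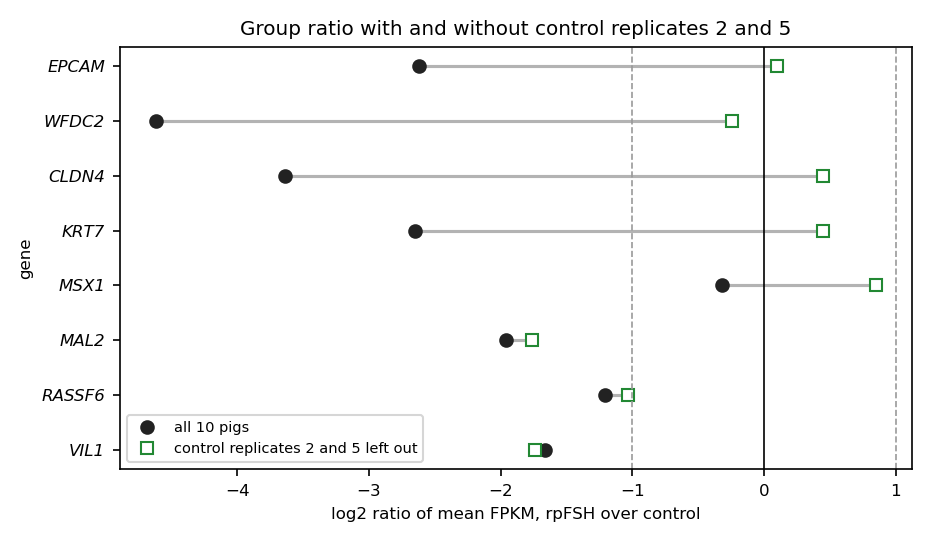
Log2 ratio of the mean FPKM of the rpFSH treatment group over that of the control group for each of the 8 genes, with all 10 pigs (filled circles) and without control pigs 2 and 5 (open squares); dashed lines mark a log2 ratio of -1 and 1. EPCAM, WFDC2, CLDN4, KRT7 and MSX1 move to between -0.24 and 0.85 without these pigs, whereas MAL2, RASSF6 and VIL1 stay between -1.76 and -1.03.

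Ordered by mean FPKM, which is comparable between genes, the controls ran from WFDC2 (11.3) and MAL2 (8.08) through KRT7 (3.89), CLDN4 (2.92), RASSF6 (2.23) and EPCAM (1.37) to VIL1 (0.198) and MSX1 (0.0984). In the rpFSH treatment group the order was MAL2 (2.08), RASSF6 (0.963), KRT7 (0.618), WFDC2 (0.459), CLDN4 (0.234), EPCAM (0.221), MSX1 (0.0791) and VIL1 (0.0628). The ranges of values over pigs overlapped between every pair of neighbours in both orders. Compared within pigs, 12 of the 14 neighbour pairs were in the other order in at least 1 pig, and RASSF6 over KRT7 and EPCAM over MSX1, both in the rpFSH treatment group, held in all 5. By its median over the 10 pigs MAL2 was above 63.2% of the tested protein-coding loci, RASSF6 above 34.8%, KRT7 above 21.3%, WFDC2 above 19.5%, EPCAM above 10.6%, CLDN4 above 8.92%, VIL1 above 4.32% and MSX1 above 2.56%. In bulk tissue, fewer cells of a type and less RNA per cell cannot be told apart.

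The fit across all tested protein-coding loci used limma on log2 (FPKM + 1), and a locus was called differentially expressed (DE), with the study's limits, where the unadjusted P was below 0.05 and the group means had a log2 ratio beyond 1 or -1. P-values measure only the spread between these pigs. Of the 8 genes, MAL2, RASSF6 and VIL1 were called lower in the rpFSH treatment group and 0 were called higher, beside 0.883% of 15170 tested loci called lower and 0.250% called higher. All 5 rpFSH pigs lay below all 5 controls in 3 of the 8 genes, beside 0.547% of the tested loci. VIL1 passed the filter of 0.1 FPKM only through its controls (mean 0.198, against 0.0628 after rpFSH). With no filter limma called the same 3 genes, among 249 loci called in all. Among all tested loci 172 were called and 134 of these were lower, and the split was 113 of 165 with upper-quartile scaling and 96 of 175 with quantile normalization, each of which called the same 3 of the 8 genes. The same contrast chose these genes, so the counts describe them and are not evidence. No tested locus reached an adjusted p under 0.05 in limma, where the smallest was 1.00 and 460 loci had an unadjusted P under 0.05. The median log2 ratio was -2.29 over the 8 genes and -0.08 over all tested loci. Without control pigs 2 and 5 these were -0.07 and -0.03, the latter over the 14875 loci that then passed the filter.

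Tests on the deposited counts called more of the 8 genes lower. The quasi-likelihood test of edgeR called 6, all tested members but KRT7, beside 2.58% of all tested loci called lower and 0.534% called higher. DESeq2 called all 7 tested genes lower, beside 2.94% of loci. By adjusted p, DESeq2 had 4 of the genes under 0.05, beside 0.494% of loci that were lower at that limit, whereas edgeR had 0 loci under it, with a smallest adjusted p of 0.981 and 717 loci at an unadjusted P under 0.05. Without control pigs 2 and 5, limma called MAL2, RASSF6 and VIL1, beside 1.40% of 14875 loci called lower, and edgeR called MAL2 and VIL1, beside 0.771% called lower. In limma the number called rose to 5 of the genes when control pig 3 was left out (EPCAM and WFDC2 were added) or control pig 4 (WFDC2 and CLDN4 were added), and the share of all tested loci called lower rose as well, to 2.14% and 1.65%. VIL1 was not tested where a mean of 1 FPKM was required, which left MAL2 and RASSF6 called.

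Control pigs 2 and 5 were the highest pair of all 10 pigs in 4 of the 8 genes (EPCAM, WFDC2, CLDN4 and KRT7), beside 8.97% of all tested loci. These were 1361 loci in all. Their part in the group differences of single genes can be read from the values without them, given above. The labels name nothing that sets these pigs apart from the other controls.

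Other pan-epithelial genes were listed to see whether they followed EPCAM, CLDN4 and KRT7. Their summed FPKM was 67.7 in control pig 2 and 115 in control pig 5, against 14.9 to 21.2 in the other controls and 12.9 to 19.3 in the rpFSH pigs. Of 22 tested genes, 18 had control pigs 2 and 5 as the highest pair, and limma called 1 lower and 0 higher. The called gene was ST14 (matriptase, an epithelial membrane protease), at 1.99 ± 1.86 (SD, n = 5) and 0.542 ± 0.367 FPKM (SD, n = 5). Its limma P was 0.0499, with an adjusted p of 1.00, and its log2 ratio of -1.88 became -0.64 without control pigs 2 and 5. On the counts edgeR called 11 of the 22 lower. The list's median log2 ratio was -1.63 over the 22 genes. Without control pigs 2 and 5 it was 0.06 over the 20 genes that still passed the filter on low values. EHF, an epithelial transcription factor, was at 8.06 and 9.93 FPKM in control pigs 2 and 5 and at 0.264 or less in the other 8. Some listed genes did not follow. RAB25 was at 0.546 and 1.35 FPKM in control pigs 2 and 5 and at up to 4.22 in the other 8. CDH3 was at 2.58 and 6.14 FPKM in these pigs and at up to 6.99 in the other 8. By contrast CLDN3, a claudin gene next to CLDN4 that the table types as a pseudogene, did follow. It was at 3.36 and 6.43 FPKM in these pigs and at 1.07 or less elsewhere.

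Genes of oviduct secretory cells gave summed FPKM of 63.3 and 82.7 in control pigs 2 and 5, 9.39 to 24.0 in the other controls and 20.4 to 41.0 in the rpFSH pigs. Among 6 tested, 4 were highest in control pigs 2 and 5, limma called 0 and edgeR called 3 lower. OVGP1, the oviductal glycoprotein, had 20.6 and 63.6 FPKM in control pigs 2 and 5 and at most 3.12 in the others, but its locus is merged with a neighbouring gene in the table. CD9, a tetraspanin of many cell types, was at 29.3 ± 18.0 (SD, n = 5) and 28.5 ± 9.29 FPKM (SD, n = 5). FOLR1, a folate receptor whose locus also holds another gene, was at 7.39 ± 2.77 (SD, n = 5) and 7.67 ± 2.85 FPKM (SD, n = 5). The list's median log2 ratio was -2.45, and 0.45 without these pigs. CRISP3 and PAX2, which are on the same list, had at most 4 counts in any of the other 8 pigs and were listed at the floor of 0.0001 FPKM in control pigs 2 and 5.

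Motile cilium genes, which mark the other cell type of the oviduct lining, summed to 28.2 and 54.9 FPKM in control pigs 2 and 5. They summed to 7.21 to 9.25 in the other controls and to 3.91 to 9.04 in the rpFSH pigs. In 12 of 14 tested genes control pigs 2 and 5 were highest, limma called 1 lower, and edgeR called 8 lower. Only 9 of these 14 passed the filter of 0.1 FPKM without control pigs 2 and 5. The others, FOXJ1, SNTN and MCIDAS among them, entered through these 2 pigs, so the counts rest in part on the filter. DNAH9, an axonemal dynein heavy chain, was the one called by limma, at 3.77 ± 3.04 (SD, n = 5) and 1.17 ± 0.497 FPKM (SD, n = 5). Its P was 0.0200 and its adjusted p 1.00 in limma, and the log2 ratio of -1.68 became -0.66 without these pigs. FOXJ1, the main transcription factor of motile ciliogenesis, was at 5.82 and 14.1 FPKM in control pigs 2 and 5 and at 0.212 or less in the others. SNTN and MCIDAS, of the ciliary tip and of the multiciliated cell programme, had 0 counts in all of the other 8 pigs. The median log2 ratio of the list was -2.13 over the 14 genes. Without control pigs 2 and 5 it was 0.01 over the 9 genes that still passed the filter, so these medians differ in genes as well as pigs.

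**Figure D3:**
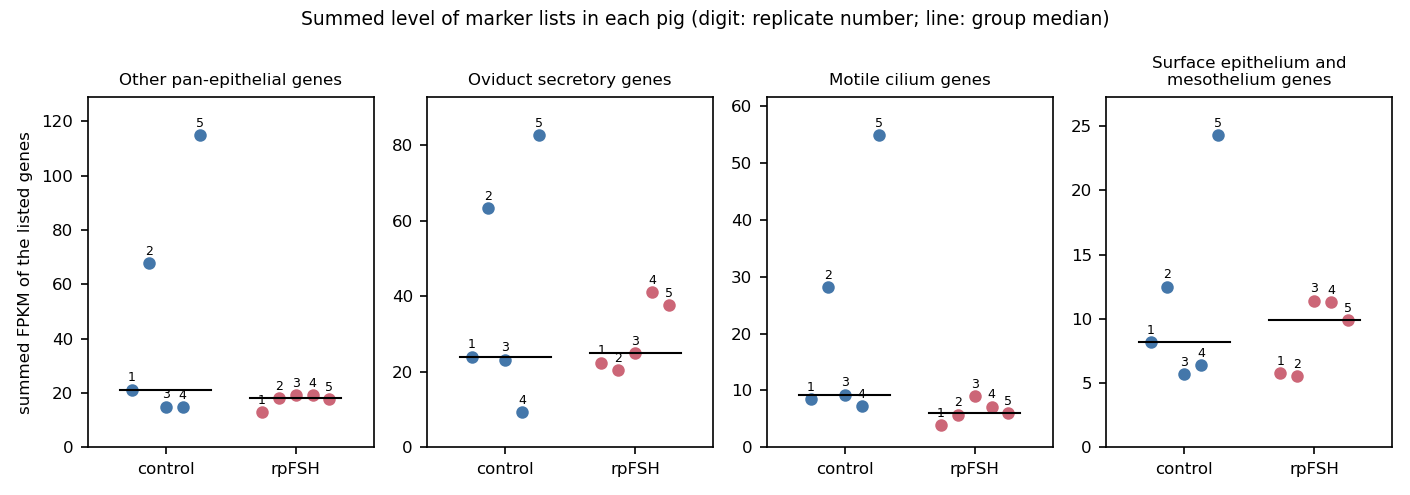
Summed FPKM of 4 marker lists in each pig, with control pigs in blue and rpFSH pigs in red, replicate numbers beside the points, and a line at each group median. Control pigs 2 and 5 have the highest sums in each list, at 67.7 and 115 for the other pan-epithelial genes against at most 21.2 in the other 8 pigs.

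Surface epithelium and mesothelium genes mark the covering of the ovary itself. Their summed FPKM was 12.5 and 24.3 in control pigs 2 and 5, 5.71 to 8.20 in the other controls and 5.55 to 11.4 in the rpFSH pigs, and 2 of 5 tested genes had these pigs as the highest pair. WT1, a transcription factor of mesothelium and granulosa cells, was at 3.37 ± 1.63 (SD, n = 5) and 3.47 ± 1.52 FPKM (SD, n = 5). GPM6A, a membrane glycoprotein, was at 3.29 ± 1.66 (SD, n = 5) and 2.83 ± 1.58 FPKM (SD, n = 5). UPK1B, a uroplakin, was at 2.40 ± 2.76 (SD, n = 5) and 1.26 ± 0.141 FPKM (SD, n = 5). The median log2 ratio of the list was -0.70, and 0.44 without control pigs 2 and 5, and neither limma nor edgeR called a gene of this list. CALB2, a mesothelial calcium-binding protein, was at 0.166 FPKM in control pig 2 and at the floor of the table in control pig 5.

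Ovarian genes checked the tissue. Summed FPKM of follicle and luteal genes was 2300 in control pig 2, 25.1 in control pig 5, 78.1 to 99.3 in the other controls and 26.6 to 1330 in the rpFSH pigs. In this sum control pigs 2 and 5 were at opposite ends of the controls, and CYP11A1 and STAR made up most of it in control pig 2. CYP11A1, the enzyme that starts steroid synthesis, was at 1760 FPKM in control pig 2 and at 4.85 in control pig 5. STAR, which carries cholesterol to that enzyme, was at 532 and 1.52 FPKM in the same pigs, and INHA, the inhibin alpha subunit of granulosa cells, at 1.34 and 4.65. Both INHA values lay below the other controls (13.4 to 66.1). The same was seen for FSHR (0.375 and 3.05 against 4.36 to 7.02), CYP19A1 (0.110 and 0.319 against 2.36 to 5.42), AMH, NR5A1, GDF9 and ZP3. It was not seen for LHCGR, at 2.74 in control pig 2 against 2.50 to 4.01. None of the 10 tested ovarian genes had control pigs 2 and 5 as the highest pair, and limma and edgeR called 0 of them. Markers of vessels, blood, muscle and stroma summed to 235 in control pig 2 and 1370 in control pig 5, beside 426 to 589 in the other controls and 400 to 994 in the rpFSH pigs. The smooth muscle genes ACTA2 and MYH11 were at 26.8 and 20.3 FPKM in control pig 2 and at 398 and 356 in control pig 5, and COL1A1, a fibrillar collagen, at 67.0 and 459. The difference in the sum lay mainly in these muscle and collagen genes. The vessel genes PECAM1, CDH5 and VWF were at 10.8, 11.9 and 28.3 FPKM in control pig 2. In control pig 5 they were at 12.4, 7.40 and 20.3. What these differences in tissue make-up contribute to the values of the 8 genes was not tested.

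**Figure D4:**
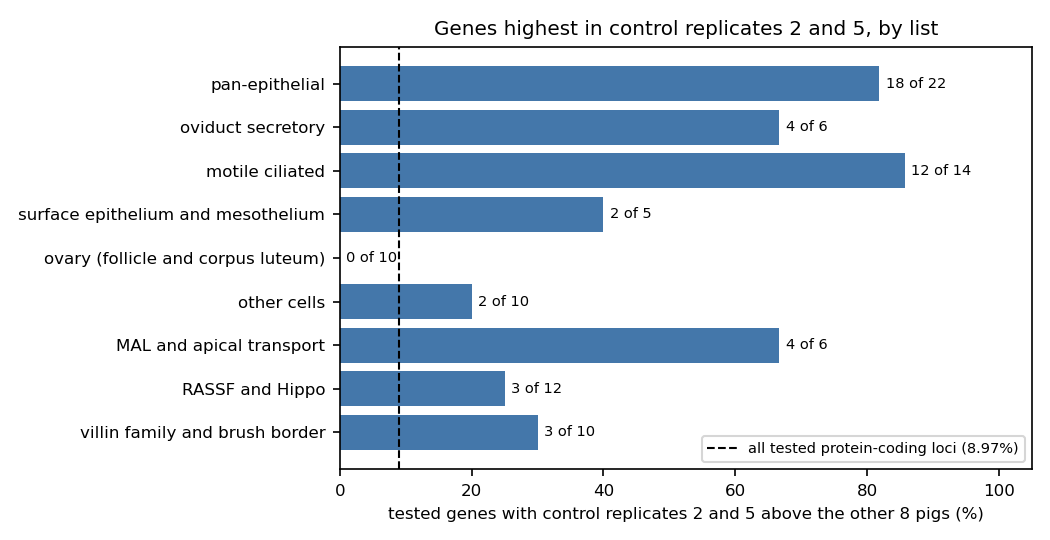
Share of tested genes of each list, in percent, for which control pigs 2 and 5 are the 2 highest of the 10 pigs, with the counts beside the bars; the dashed line is the share of all tested protein-coding loci (8.97%). The bars of the motile ciliated list (12 of 14) and the pan-epithelial list (18 of 22) are the longest, and the ovarian list has 0 of 10. Some genes passed the filter on low values only through control pigs 2 and 5. Without these pigs 9 motile ciliated and 20 pan-epithelial genes passed it.

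Genes related to MAL2, RASSF6 and VIL1 were listed to see whether their families moved with them. Of MAL family and apical transport genes, 6 were tested, limma and edgeR called 0, and the median log2 ratio was -0.26. The 3 with the highest mean level, CMTM6, TPD52 and CMTM4, had log2 ratios of 0.03, -0.26 and -0.04. PLLP (plasmolipin), a relative of MAL2, was at 2.00 ± 0.612 (SD, n = 5) and 1.00 ± 0.611 FPKM (SD, n = 5), with a limma P of 0.0189 and an adjusted p of 1.00. Its log2 ratio did not pass the limit for a call, and PLLP was named after its values were seen. Also named after their values were seen were STK4, VILL, EHF, RAB25, CDH3, CLDN3, FOXJ1, SNTN, MCIDAS, CALB2, CRISP3, PAX2, PECAM1, CDH5, VWF and CFAP65. So were the ovarian genes FSHR, CYP19A1, AMH, NR5A1, GDF9, ZP3 and LHCGR. Of the 6 genes, 4 had control pigs 2 and 5 as the highest pair.

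None of the 12 tested RASSF and Hippo genes was called by limma or edgeR, and their median log2 ratio was -0.23. RASSF3, RASSF8 and RASSF1, the most abundant ones, had log2 ratios of -0.61, 0.02 and -0.14. STK4 (MST1), a kinase of the Hippo pathway, was at 4.90 ± 0.225 (SD, n = 5) and 3.42 ± 1.34 FPKM (SD, n = 5), a log2 ratio of -0.52. Villin family and brush border genes had a median log2 ratio of 0.04 over 10 tested, with 0 called by limma or edgeR. Among them EZR, FLII and GSN, which link or remodel actin, had log2 ratios of -0.36, 0.19 and -0.20. VILL, villin-like, was at 0.722 ± 0.182 (SD, n = 5) and 0.436 ± 0.129 FPKM (SD, n = 5), a log2 ratio of -0.73.

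Homeobox relatives of MSX1 were scarce. MSX2 was at 0.170 ± 0.253 (SD, n = 5) and 0.102 ± 0.0269 FPKM (SD, n = 5), with its highest value, 0.604, in control pig 5. DLX4 was at 0.158 ± 0.0755 (SD, n = 5) and 0.315 ± 0.0727 FPKM (SD, n = 5), and edgeR, but not limma, called it higher in the rpFSH treatment group. Of the WAP domain relatives of WFDC2, SLPI, an antiprotease of mucosal secretions, had 16.0 and 21.0 FPKM in control pigs 2 and 5 and at most 1.07 elsewhere. WFDC1 was at 3.68 ± 2.98 (SD, n = 5) and 3.06 ± 1.34 FPKM (SD, n = 5). Over all 11 lists, limma called 2 of 98 tested loci lower and 0 higher, and edgeR called 22 lower and 1 higher.

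Correlations over pigs were described for the same sets of members. Control pigs 2 and 5 formed a separate pair in EPCAM, WFDC2, CLDN4 and KRT7, so no correlation over all 10 pigs is given for them. Over the other 8 pigs the 6 pairs among these genes had Pearson's r of log2 (FPKM + 1) from -0.533 (EPCAM and WFDC2) to 0.739 (EPCAM and KRT7), so the genes did not all rise and fall together once these pigs were set aside. MAL2, RASSF6 and VIL1 had r from 0.651 to 0.826 over the 10 pigs (Spearman's rho from 0.697 to 0.806), and from -0.437 to 0.0341 once the group means were taken out. Without control pigs 2 and 5 the values with group means taken out were from -0.239 to 0.433, and for MAL2 and VIL1 the sign turned from -0.437 to 0.433. In that same form the 12 pairs between the 2 sets ran from -0.736 to 0.787, so the sets did not stand apart by correlation. All of these correlations share the 10 libraries and are descriptions without a test.

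The tested genes whose values were most like the mean of the standardized levels of the 8 genes were STOML3, WDR93, WDR78, TMC4, SPEF2, PPIL6, SPATS1, CFAP300, LRRC36 and MYB, with r between 0.958 and 0.975 over the 10 pigs. Each was highest in control pigs 2 and 5. That follows from the mean itself, which was 1.26 and 1.64 in these pigs and at most 0.09 in the other 8. STOML3, for instance, was at 3.13 and 4.50 FPKM in these pigs and between 1.34 and 2.03 in the other 8. WDR78, a component of the axoneme, was at 2.39 and 2.38 FPKM against at most 0.371, and SPEF2, a protein of the sperm flagellum and motile cilia, was at 3.58 and 4.03 against at most 0.944. Over the other 8 pigs r was between 0.590 and 0.877 for these genes, with the difference between the groups still in it. MAL2 alone was most like C2orf68 (r = 0.935), CFAP20 (0.923), MPPE1 (0.911), ATP5MD (0.905) and MZT1 (0.893), and these are not among the 10 genes above. C2orf68 was at 5.50 to 6.04 FPKM in controls and 5.04 to 5.55 in rpFSH pigs, ranges that overlap and are far closer than those of MAL2.

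Loci around the 8 genes were examined within 100000 bp on each side. They held 46 protein-coding loci, of which 23 were tested, and 12 tested unannotated loci, which have no type in the table and of which 9 carry the name of CFAP65, a neighbour of VIL1. None of these 12 was called by limma, beside 2.29% of 19909 tested unannotated loci called in either direction, and edgeR called 0, beside 3.79%. Among the 23 protein-coding neighbours limma called 1, beside the 0.883% of all tested loci called lower, and edgeR called 3, all lower, beside 2.58%. These 3 were ENSSSCG00000023426, CATIP and CFAP65, each highest in control pigs 2 and 5. The neighbour that limma called was ENSSSCG00000023426, which overlaps RASSF6 by 332 bp on the opposite strand. It was at 0.359 ± 0.184 (SD, n = 5) and 0.154 ± 0.0296 FPKM (SD, n = 5), a log2 ratio of -1.22 with a limma P of 0.0357 and an adjusted p of 1.00. RASSF6 itself was not highest in this pair of pigs.

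CLDN4, MAL2 and VIL1 also overlap genes on the opposite strand. CFAP65, a ciliary gene with a long assembled locus, overlaps the whole 22037 bp of VIL1 and was at 2.32 and 5.49 FPKM in control pigs 2 and 5 and at most 0.112 in the others. VIL1 did not follow it, since VIL1 was at 0.131 in control pig 2, the lowest control, and at 0.229 in control pig 5. METTL27 overlaps CLDN4 by 720 bp, with 0.195 ± 0.134 (SD, n = 5) and 0.258 ± 0.103 FPKM (SD, n = 5). ENSSSCG00000040576 overlaps MAL2 over 43465 bp and was at 0.113 FPKM in control pig 5 and at the floor of the table in the other 9 pigs. The methods describe a library that keeps strand, but whether the counting used it is not stated, so reads of such pairs could have been shared.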

How the data were processed

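RNA of 10 ovaries was sequenced, with 1 library per pig, 5 per group by the sample titles. According to the methods, the authors trimmed reads with Cutadapt, mapped them to Sscrofa11.1, assembled transcripts with StringTie, and obtained FPKM from StringTie together with Ballgown. The submitters' processing notes name HISAT2 2.0, Bowtie 0.12.2 and StringTie 1.3.0. The methods describe rRNA removal and the labels poly(A) selection. The deposited table gives FPKM, with a lowest listed value of 0.0001, and a count per locus and pig. How the authors made the counts is not given in the sources used here. The ratio of count to FPKM was fixed for a locus and pig (99th percentile of the log2 deviation 0.00301, from 17859 loci that exceeded 200 counts throughout).

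The genes, lists and limits were chosen with earlier results of these data known. Symbols were matched to protein-coding loci, and 115 of 130 list entries had a locus, of which 98 were tested. PAX8, MUC1, MSLN, KRT19, CD24 and FOXL2 are among the symbols not matched. Protein-coding loci averaging 0.1 FPKM or more were fitted with limma 3.58.1 (lmFit, eBayes with trend, log2 with a pseudocount of 1) in R 4.3.3, and unannotated loci were fitted separately, each with Benjamini-Hochberg adjustment. On the deposited counts DESeq2 1.42.0 and edgeR 4.0.16 (TMM, quasi-likelihood) were run as alternatives, beside another pseudocount, other filters, upper-quartile scaling, quantile normalization, the replicate block, and pigs left out. The calculations were checked on simulated data. Summaries and figures were made in Python 3.11.15 (pandas 2.3.3, numpy 2.4.6, scipy 1.17.1, matplotlib 3.10.9).

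Named are the 8 genes, in each list the called genes (up to 5 with the smallest P in a direction) or otherwise the 3 most abundant, the 10 genes most correlated with the mean of the 8, and called unannotated loci within 100000 bp. The genes most like MAL2 alone were added after the values were seen. No sequence of the 8 genes is shown.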

Additional observations from a re-analysis of the deposited data

Results flagged for a closer look

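In 16 groups of 5 pigs (8 genes in each group), 2 held a pig far from the other 4, by a gap to its neighbour of more than 0.71 of the group's range, and chance gives about 1 in 20 groups. EPCAM in the rpFSH treatment group was at 0.566 FPKM in pig 4 and at 0.0740 to 0.199 in the other pigs, a gap of 0.746 of the range. CLDN4 in the rpFSH treatment group was at 0.519 FPKM in pig 3 and at 0.125 to 0.197 in the others, a gap of 0.816 of the range. The high values of control pigs 2 and 5 were not found this way, since a pair of high pigs leaves no wide gap at the top.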

How the results depend on the processing

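In limma 3 of the 8 genes, 2 list loci and 172 loci in all were called. With edgeR these counts were 6, 23 and 473, and with DESeq2 7, 26 and 526. Without control pigs 2 and 5 limma called 3, 1 and 359, and edgeR, a choice made after seeing the data, called 2, 4 and 423; these 1 and 4 list loci were all higher in the rpFSH treatment group, as were 151 of 359 and 306 of 423. Without these pigs the median log2 ratio of the 8 genes was -0.07, and -0.16 by edgeR over 7 of them. The log2 ratios of EPCAM (0.10), CLDN4 (0.45), KRT7 (0.45) and MSX1 (0.85) turned positive, in edgeR too (0.16, 0.54 and 0.54, MSX1 untested), and WFDC2 moved to -0.24 and -0.16. Requiring a mean of 1 FPKM left 2 of the 8 genes (VIL1 untested), 1 list locus and 63 loci. No filter, or a pseudocount of 0.1, gave 4 list loci. Leaving out 1 pig gave 3 to 5 of the 8 genes, 2 to 18 list loci (18 without control pig 3) and 142 to 367 loci (367 without control pig 3), and a log2 ratio of MSX1 from -0.57 to 0.45. With the replicate block 3 of the 8 genes, 2 list loci and 167 loci were called. Deviations from the group mean over loci correlated between -0.413 and 0.111 in same-numbered pigs. This gives no sign of pairing by number, although it cannot show that there is none. Unannotated loci near the 8 genes had 0 calls in each of these settings (12 tested, 11 with a mean of 1 FPKM). Apart from leaving out 1 pig, 77 log2 ratios of single genes were recomputed, and the 9 given here were those that moved by 1 SD or more. Depth limits VIL1 and MSX1, with 12 to 50 and 10 to 87 counts per pig, and counting error is not the spread between pigs. The design cannot tell cell number from RNA per cell.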
